A study of Mus musculus with 3 samples.

Results

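TRBV17 is a variable gene of the mouse T cell receptor (TCR) β chain, and the older literature calls its family Vβ9. Its rearrangements were examined in splenic CD4, CD8 and double-negative (DN, CD4-CD8-) T cells. A clonotype here is a distinct nucleotide sequence of the third complementarity-determining region (CDR3) with its best matching V, D and J genes. Members were chosen by the assigned genes alone, that is every clonotype whose best V gene was TRBV17 and whose best J gene was a TRBJ gene. The rule gave 1438 of 44807 TCRβ clonotypes in CD4, 5164 of 81212 in CD8 and 3746 of 41948 in the DN library. Counted once over the 3 libraries, these were 9259 distinct TRBV17 clonotypes.

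The cells were sorted by flow cytometry from the spleen of 1 MRL.lpr mouse aged 16 weeks, and TCR libraries were made from mRNA of an equal number of cells per subset. The lpr mutation disrupts Fas, a death receptor, and mice that carry it accumulate DN T cells and develop lupus-like autoimmunity. The study set the receptors of DN T cells against those of CD8 and CD4 T cells. All 3 subsets carried lpr, so no wild-type repertoire was compared, and each subset was represented by 1 library. The tables hold receptor sequences only, so the sorted subset labels could not be checked against CD4 or CD8 transcripts.

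A TCRβ chain is assembled in the thymus by joining 1 V, 1 D and 1 J segment of the TRB locus. Bases are trimmed from the segment ends and others are added at the joints, so the CDR3 at the joint identifies a rearrangement. The remainder of the V gene encodes the first and second complementarity-determining regions, which mostly touch the MHC molecule, whereas the CDR3 mostly touches the peptide. The locus holds a TRBD1-TRBJ1 cluster followed by a TRBD2-TRBJ2 cluster, and a TRBD2 segment ordinarily cannot reach the TRBJ1 genes that lie before it. The RefSeq gene list of GRCm38.p6 names Tcrb-V9 as a synonym of Trbv17 and places the gene between Trbv16 and Trbv18.

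The CDR3 sequences of the largest TRBV17 clonotypes are printed to show which bases of the CDR3 differ among chains that use 1 V gene. The common start, read from the in-frame TRBV17 clonotypes themselves and not from a germline record, was as follows.
TRBV17 common start: tgtgctagcagtagagat
Of 8903 distinct in-frame TRBV17 CDR3s, 84.0% kept at least the first 12 of these 18 bases, 43.1% kept at least 15 and 11.9% kept all of them. In the sequences below, capitals mark the bases between the part shared with that start and the part shared with the common end of the J gene. The common ends were also read from clonotypes and not from germline records, so they need not begin where the J gene does. The capitals can hold D segment bases, added bases and J gene bases that lie before a common end. A base that matches a common end by coincidence is printed in lower case.
CD4 largest, TRBJ1-6: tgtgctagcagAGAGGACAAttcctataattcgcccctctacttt
CD4 rank 2, TRBJ2-3: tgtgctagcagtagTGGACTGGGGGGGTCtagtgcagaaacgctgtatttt
CD4 rank 3, TRBJ2-5: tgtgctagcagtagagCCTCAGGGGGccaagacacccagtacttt
CD8 largest, TRBJ2-3: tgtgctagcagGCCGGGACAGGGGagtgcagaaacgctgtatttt
CD8 rank 2, TRBJ2-1: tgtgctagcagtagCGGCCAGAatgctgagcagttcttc
CD8 rank 3, TRBJ2-7: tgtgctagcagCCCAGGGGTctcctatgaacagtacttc
DN largest, TRBJ2-1: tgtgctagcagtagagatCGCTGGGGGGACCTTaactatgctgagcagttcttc
DN rank 2, TRBJ2-2: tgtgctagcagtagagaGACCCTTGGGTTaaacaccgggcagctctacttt
DN rank 3, TRBJ2-7: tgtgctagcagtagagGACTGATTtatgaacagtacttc
The largest TRBV17 clonotype that was not in frame was the same in all 3 libraries, and it is printed because it had no base between the 2 common parts.
Not in frame, TRBJ2-7: tgtgctcctatgaacagtacttc

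The libraries held 133667 TCRβ reads in CD4, 150874 in CD8 and 194290 in the DN library. The tables count reads and not molecules, so intervals given here are 95% Wilson or Katz intervals that cover counting error only. Clonotypes of 1 library share a mouse, a sort and a PCR, so the tests compare rearrangements within a library, and no difference between libraries was tested. The libraries were not separate in content. Of the TRBV17 clonotypes, 760 were found in both DN and CD8, 244 in both DN and CD4 and 229 in both CD4 and CD8, and the values without shared clonotypes are therefore given as well. Whether cells or reads were carried between the sorted samples was not tested.

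TRBV17 took a larger share of the β chains in CD8 and DN than in CD4 T cells. It held 3.57% of TCRβ reads in CD4 (4771 reads, interval 3.47 to 3.67%), 6.82% in CD8 (10297 reads, 6.70 to 6.95%) and 7.58% in DN T cells (14732 reads, 7.47 to 7.70%). The 3 intervals did not overlap, with 1 library each and no replicate spread. The DN read share exceeded that of CD4 by a factor of 2.12 (2.06 to 2.19) and that of CD8 by a factor of 1.11 (1.08 to 1.14), and the share in CD8 was 1.91 times that in CD4 (1.85 to 1.98). By clonotypes, the share was 3.21% in CD4, 6.36% in CD8 and 8.93% in the DN library, which put DN at 1.40 times CD8 (1.35 to 1.46). Without clonotypes found in more than 1 library, the DN over CD8 read ratio was 1.46 and the DN over CD4 ratio 2.83. With only clonotypes of at least 2 reads, these ratios were lower, at 1.04 and 2.03. More TRBV17 cells and more TCRβ mRNA per TRBV17 cell cannot be told apart in such shares.

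**Figure D1:**
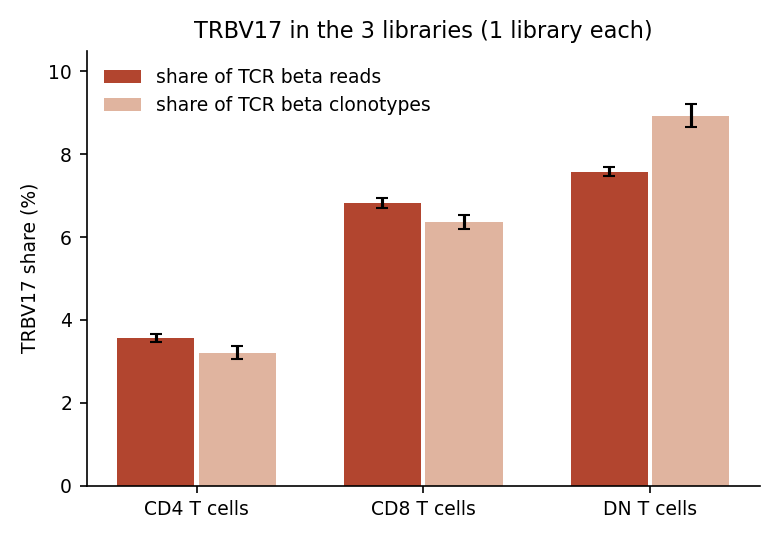
TRBV17 as a percent of TCRβ reads (dark bars) and of TCRβ clonotypes (light bars) in the CD4, CD8 and DN T cell libraries, with 95% Wilson intervals for counting error. The order was CD4, CD8, DN by either measure, and the gap between CD8 and DN was wider by clonotypes (6.36% against 8.93%) than by reads (6.82% against 7.58%).

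TRBV17 ranked 11 of 26 V genes by reads in CD4, 7 of 24 in CD8 and 6 of 29 in the DN library. Its neighbours in the CD4 order were TRBV26 above (3.97%) and TRBV2 below (3.23%). In CD8 they were TRBV19 (7.92%) and TRBV14 (6.02%), and in DN T cells TRBV31 (9.36%) and TRBV5 (6.88%). All of these differed from TRBV17 by more than the counting interval of its share. Among 14 V genes with at least 0.5% of the reads in every library, the pattern nearest to that of TRBV17 was that of TRBV1, with 6.48%, 10.8% and 11.9% of reads in the CD4, CD8 and DN libraries. The distance, taken between the centred log2 read shares of the 3 libraries, was 0.17 for TRBV1 and 0.38 for TRBV13-3. TRBV13-3 held 5.81%, 14.9% and 11.8% of reads, so unlike TRBV17 it was lower in DN than in CD8 T cells.

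TRBV17 clonotypes were more often in frame and free of stop codons than those of the other V genes. The in-frame part was 94.5% of TRBV17 clonotypes in CD4, 97.4% in CD8 and 96.1% in the DN library, against 92.1%, 94.96% and 90.5% of the clonotypes of all other V genes. The two-sided Fisher's exact test gave adjusted p = 0.000762 in CD4, 1.15e-16 in CD8 and 1.28e-35 in the DN library after Benjamini-Hochberg adjustment over the V genes. Such differences were the rule among V genes, since 86.4% of those tested passed in CD4, 86.4% in CD8 and 81% in the DN library. TRBV17 had the 6th highest in-frame part of 22 V genes in CD4, the 5th of 22 in CD8 and the 2nd of 21 in the DN library. Against only the V genes with at least 0.5% of reads, the difference was 1.28 percentage points in CD4 (adjusted p = 0.0654 by Fisher's exact test), 1.83 in CD8 and 4.27 in the DN library. Without clonotypes shared with another library, the CD4 difference was 1.65 points (adjusted p = 0.0674 by Fisher's exact test), and those of CD8 and DN T cells still passed.

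The TRBV17 clonotypes that were not in frame were 79 in CD4, 136 in CD8 and 146 in the DN library, and nearly all were frameshifts (74, 125 and 130). Most had a single read (84.8%, 90.4% and 85.6%). In-frame clonotypes held 97.1% of TRBV17 reads in CD4, 98.3% in CD8 and 98.6% in the DN library. A frameshifted clonotype can also arise from a read with an inserted or deleted base. Among those not in frame, 4 in CD4, 2 in CD8 and 19 in the DN library lay 1 inserted or deleted base from an in-frame TRBV17 clonotype with the same J gene and at least 10 times the reads. The part that did so was 13.01% in DN T cells (8.49 to 19.4%), against 7.80% for the other V genes there. Of 356 distinct TRBV17 clonotypes not in frame, 2 were found in all 3 libraries. The larger of these was the 23-base sequence printed above, with 39 reads in CD4, 26 in CD8 and 20 in the DN library.

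TRBV17 was joined mostly to genes of the TRBJ2 cluster. TRBJ2 genes were used by 75.1% of in-frame TRBV17 clonotypes in CD4, 79.0% in CD8 and 78.1% in the DN library, compared with 63.1%, 68.6% and 69.9% for the other V genes. TRBJ2-7 was the most used, with 21.0%, 25.6% and 26.8% of clonotypes in the CD4, CD8 and DN libraries, and TRBJ2-1 came next with 16.0%, 16.1% and 17.3%. The least used were TRBJ1-5, with 2.21%, 0.855% and 0.806%, and TRBJ1-6, with 2.21%, 1.37% and 1.03%. For TRBJ1-6 the other V genes stood at 3.72%, 3.70% and 4.34%, so in DN T cells TRBV17 used it at 0.24 times their rate. For TRBJ1-5 they stood at 2.94%, 2.635% and 2.47%.

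In the test of every V and J gene pair, 3 of the 12 J genes were used more and 5 less with TRBV17 in CD4, 4 more and 7 less in CD8, and 3 more and 5 less in the DN library. Over all V genes, 31% of the pairs passed in CD4 (13.9% higher, 17.1% lower), 43.7% in CD8 (20.2% higher, 23.4% lower) and 27.9% in DN T cells (13.2% higher, 14.7% lower). The TRBV17 pairs passed more often than pairs at large in each library, a comparison that was counted and not tested. The pairs at large include V genes with as few as 50 clonotypes, against 1359, 5028 and 3600 in-frame TRBV17 clonotypes in CD4, CD8 and DN. More clonotypes let a pair pass more readily, so the 2 shares are not like for like. Of the 12 J genes, 5 passed in the same direction in all 3 libraries when clonotypes of any size were counted. No such count is given for the pairs of other V genes, so whether 5 of 12 is many cannot be told. The counts under other settings below likewise have no share over all pairs beside them. TRBJ2-5 and TRBJ2-7 were used more with TRBV17, and TRBJ1-2, TRBJ1-4 and TRBJ1-6 less. TRBJ2-5 stood at 14.9% against 11.8% of the other V genes' clonotypes in CD4 (adjusted p = 0.00485, Fisher's exact test), 16.0% against 13.2% in CD8 (4.07e-07) and 15.4% against 11.5% in DN T cells (5.08e-10). TRBJ1-2 stood at 3.68% against 6.26%, 2.67% against 4.95% and 2.56% against 3.83% in the same order. With clonotypes of at least 2 reads alone, 2 pairs passed in CD4 in place of 8, 8 in CD8 in place of 11 and 5 in DN T cells in place of 8. None of the 5 J genes then passed in CD4 (adjusted p = 0.0966 to 0.304, Fisher's exact test), TRBJ1-4 passed in no library (adjusted p = 0.11 in CD8 and 0.315 in DN T cells, Fisher's exact test) and TRBJ1-2 did not pass in DN T cells (adjusted p = 0.184, Fisher's exact test). Without clonotypes shared between libraries, 5 pairs passed in CD4, 11 in CD8 and 6 in the DN library. In that setting TRBJ2-5 (adjusted p = 0.0522) and TRBJ2-7 (adjusted p = 0.0832, Fisher's exact test) did not pass in CD4, nor TRBJ1-4 in DN T cells (adjusted p = 0.264, Fisher's exact test).

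By reads in place of clonotypes, some of these pairings moved in every library. In CD4 T cells TRBJ2-7 lay 0.41 percentage points above the other V genes in place of 3.95, and TRBJ2-5 lay 5.60 above in place of 3.03. The CD4 difference of TRBJ1-4 was −0.81 points in place of −2.40. TRBJ1-6 changed direction in CD4 and held 6.89% of in-frame TRBV17 reads against 2.21% of clonotypes. The largest TRBV17 clonotype of the CD4 library, printed above, used TRBJ1-6 and had 239 reads. In CD8 T cells the difference of TRBJ1-4 was −1.85 points in place of −1.065, and that of TRBJ2-5 was 1.51 in place of 2.79. In DN T cells that of TRBJ1-6 was −2.09 in place of −3.31, and that of TRBJ2-7 was 5.42 in place of 3.63. None of the 5 J genes changed direction in CD8 or DN T cells.

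**Figure D2:**
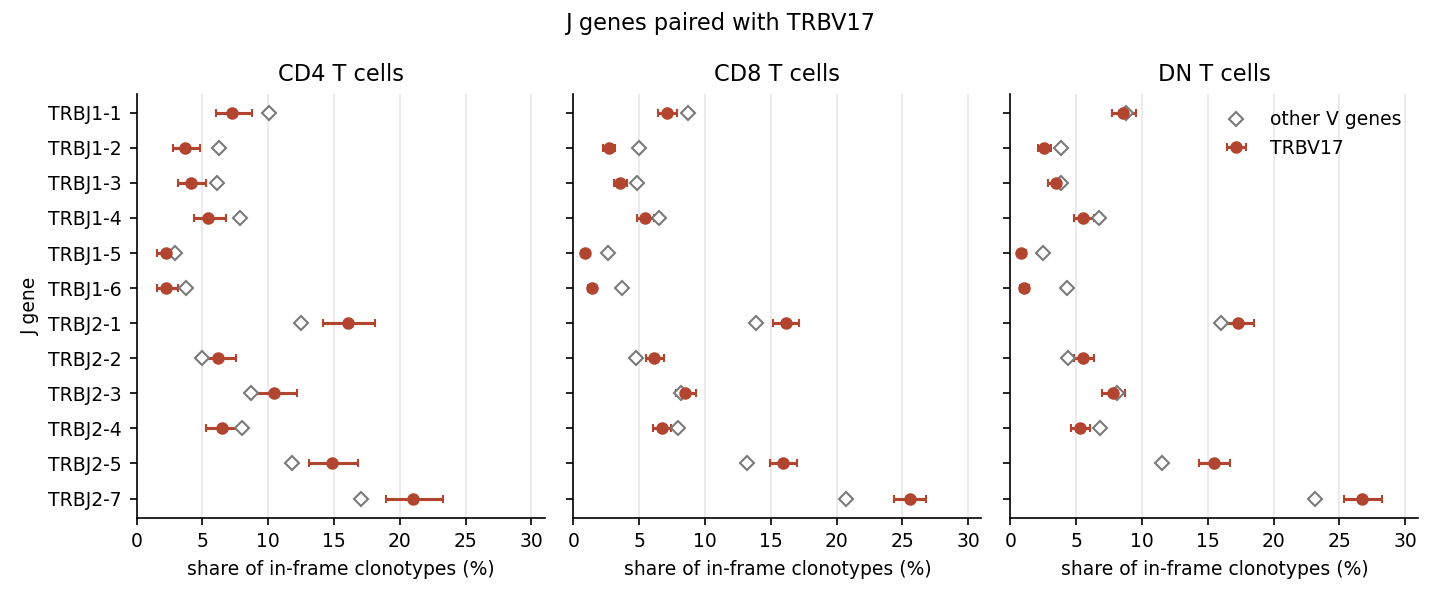
Percent of in-frame clonotypes that used each of the 12 TRBJ genes, for TRBV17 (filled circles with 95% Wilson intervals) and for all other V genes (open diamonds), in 1 panel per library. TRBJ2-1, TRBJ2-2, TRBJ2-5 and TRBJ2-7 lay above the other V genes in every panel, and TRBJ2-4 and the TRBJ1 genes below them. Of these, TRBJ2-5, TRBJ2-7, TRBJ1-2, TRBJ1-4 and TRBJ1-6 passed the test in all 3 libraries.

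The D gene listed for TRBV17 mostly followed the order of the locus. Among all in-frame clonotypes with a TRBJ1 gene, TRBD2 was listed for 5.31% in CD4, 4.36% in CD8 and 5.58% in the DN library. TRBD1 was listed for 56.05%, 59.4% and 60.1% of them, and no D gene for 38.6%, 36.2% and 34.35%. Among in-frame TRBJ2 clonotypes with a D gene listed, TRBD2 was given to 51.9% of TRBV17 clonotypes in CD4, 52.5% in CD8 and 57.7% in the DN library. The other V genes stood at 54.7%, 56.9% and 67.1%. The difference passed in CD8 (adjusted p = 5.33e-06, Fisher's exact test) and DN T cells (6.34e-17) and did not in CD4 (0.16). Of the V genes tested, 68.8% passed in CD4, 77.8% in CD8 and 68.8% in the DN library. TRBV17 was 9th highest of 16 V genes in CD4, 11th of 18 in CD8 and 13th of 16 in the DN library.

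No D gene was listed for 28.0% of in-frame TRBV17 clonotypes in CD4, 26.1% in CD8 and 26.6% in the DN library. The other V genes had 26.4%, 26.3% and 23.0%, and the difference passed in DN T cells alone (adjusted p = 4.77e-06 by Fisher's exact test, against 0.214 in CD4 and 0.83 in CD8). Among V genes 66.7% passed in CD4, 52.4% in CD8 and 41.2% in the DN library. TRBV17 was 8th highest of 18 V genes in CD4, 15th of 21 in CD8 and 5th of 17 in the DN library. D segments are short and trimmed at both ends, so a missing D gene in such tables can mean that too few bases were left to match one.

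**Figure D3:**
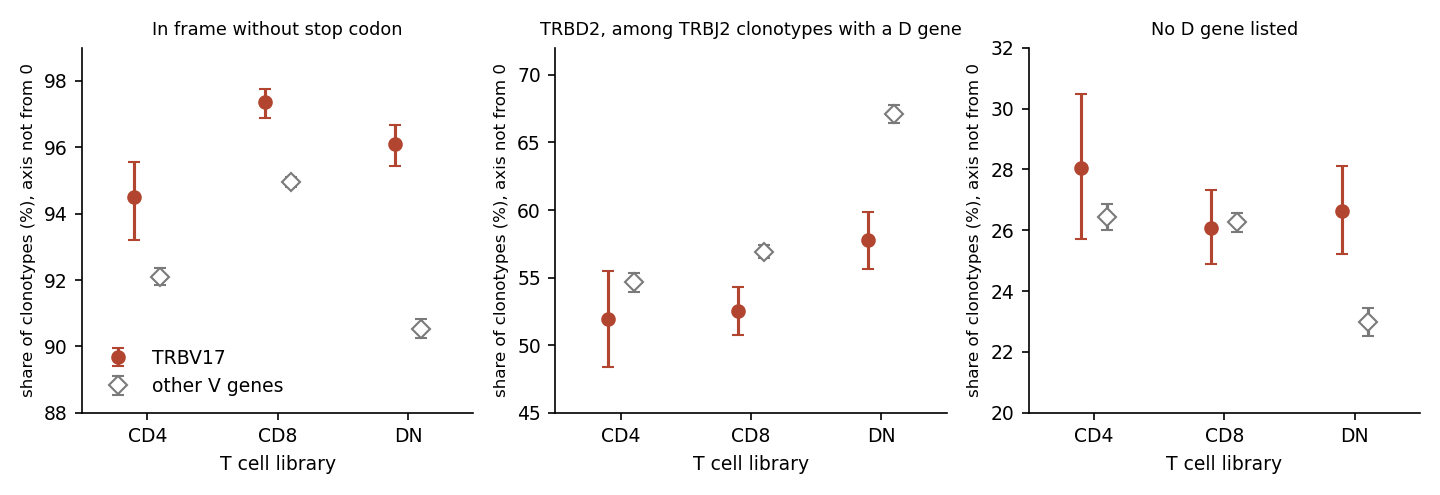
Percent of clonotypes in frame and free of stop codons (left), that used TRBD2 among in-frame TRBJ2 clonotypes with a D gene (middle) and that had no D gene listed among in-frame clonotypes (right), for TRBV17 (filled circles) and the other V genes (open diamonds) with 95% Wilson intervals; the vertical axes do not start at 0. In DN T cells the TRBV17 interval did not overlap that of the other V genes pooled in any of the 3 panels. Single V genes are not shown.

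CDR3 length of TRBV17 differed little between the libraries, and the difference from the other V genes ran in opposite directions in CD8 and DN T cells. The mean length was 14.03 residues in CD4, 14.00 in CD8 and 14.09 in the DN library for TRBV17, against 13.91, 13.91 and 14.23 for the other V genes. CDR3s longer than the library median of 14 residues made up 36.6%, 36.8% and 38.9% of in-frame TRBV17 clonotypes in the CD4, CD8 and DN libraries, and 35.0%, 34.9% and 44.9% of the others. TRBV17 was the shorter in DN T cells (adjusted p = 6.99e-12, Fisher's exact test) and the longer in CD8 (0.0112), and in CD4 the test did not pass (0.253). Of the V genes tested, 83.3% passed in CD4, 85.7% in CD8 and 70.6% in the DN library. In the part of long CDR3s, TRBV17 was 7th highest of 18 V genes in CD4, 8th of 21 in CD8 and 11th of 17 in DN. Weighted by reads, the mean lengths in DN T cells were 14.27 residues for TRBV17 and 14.25 for the other V genes, so the shorter length of TRBV17 was seen by clonotypes and not by reads. With the cut placed 1 residue higher, the CD8 difference was 0.65 percentage points and no longer passed (adjusted p = 0.22 by Fisher's exact test).

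**Figure D4:**
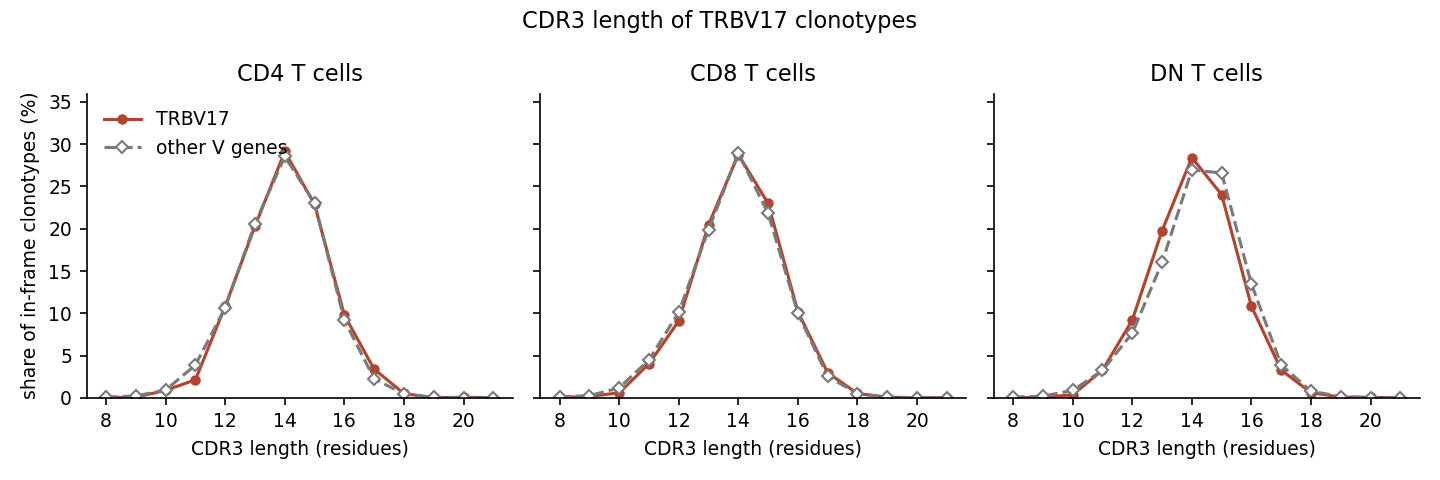
Percent of in-frame clonotypes at each CDR3 length in residues, for TRBV17 (filled circles, solid line) and the other V genes (open diamonds, dashed line), in 1 panel per library. The curves nearly coincided in CD4 and CD8, while in DN T cells TRBV17 had more clonotypes of 13 residues (19.8% against 16.0%) and fewer of 16 (10.8% against 13.5%).

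The length of the joint differed between the libraries by less than its spread among clonotypes. In-frame TRBV17 CDR3s kept on average 14.05 bases of the common start in CD4 (SD 2.77 over 1359 clonotypes), 14.12 in CD8 (SD 2.69, 5028 clonotypes) and 14.03 in DN T cells (SD 2.75, 3600 clonotypes). Between the 2 common parts lay 9.96, 9.83 and 10.2 bases on average. The common start codes for arginine at position 5 of the CDR3, and this residue was present in 64.2% of in-frame TRBV17 clonotypes in CD4 (61.6 to 66.7%), 59.3% in CD8 (57.9 to 60.6%) and 56.6% in DN T cells (55.0 to 58.2%). Only 7.08%, 4.76% and 4.33% of the clonotypes of other V genes had an arginine there. By reads the order changed, with arginine in 60.3%, 55.1% and 64.9% of in-frame TRBV17 reads. The largest clonotypes made this difference, since arginine was present in 5 of the 10 largest TRBV17 clonotypes in CD4, 5 in CD8 and 9 in the DN library. Without those 10 of each library, it was present in 65.3%, 62.0% and 60.5% of the reads, again with CD4 the highest and DN the lowest.

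The mean clone size differed between the libraries, which were of unequal depth. TRBV17 clonotypes had 3.32 reads on average in CD4, 1.99 in CD8 and 3.93 in the DN library, and those of the other V genes 2.97, 1.85 and 4.70. The largest TRBV17 clonotype held 239 reads in CD4 (5.01% of TRBV17 reads, 4.43 to 5.67%), 637 in CD8 (6.19%, 5.74 to 6.67%) and 392 in DN T cells (2.66%, 2.41 to 2.93%). The 10 largest together held 24.2%, 14.5% and 13.2%. Clonotypes of at least 10 reads numbered 71 in CD4, 62 in CD8 and 216 in the DN library, or 4.94%, 1.20% and 5.77% of TRBV17 clonotypes at unequal depth. The other V genes had 4.06%, 1.15% and 6.99%, so TRBV17 stood above them in CD4 and below them in DN T cells. Clonotypes of at least 100 reads numbered 4, 3 and 18, or 0.278%, 0.0581% and 0.481% of TRBV17 clonotypes. The other V genes had 0.187%, 0.0421% and 0.516%, so in DN T cells TRBV17 again stood below them. In the CD8 library 3 TRBV17 clonotypes were among the 10 largest of all V genes, at ranks 2, 5 and 7, while none reached the 10 largest of the CD4 or DN library. Clonotypes with 1 read made up 60.6%, 67.9% and 53.6% of in-frame TRBV17 clonotypes against 60.9%, 68.2% and 55.1% for the other V genes, and no difference passed (adjusted p = 0.926, 0.681 and 0.16 by Fisher's exact test). In that test 16.7% of V genes passed in CD4, 38.1% in CD8 and 35.3% in the DN library. At an equal depth of 133667 TCRβ reads, the expected number of TRBV17 clonotypes was 1438, 4748 and 3022 in the CD4, CD8 and DN libraries. These were 3.21%, 6.36% and 8.97% of the clonotypes of all V genes expected at that depth.

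The 3 largest TRBV17 clonotypes of the CD4 library had few reads in the other libraries. The TRBJ1-6 clonotype had 239 reads in CD4, 6 in CD8 and 2 in the DN library. The TRBJ2-3 clonotype had 213, 5 and 1 reads, and the TRBJ2-5 clonotype 210, 3 and 0, where 0 reads allow a share of up to 0.00154% in DN T cells. Those of the CD8 library were likewise rare elsewhere. The TRBJ2-3 clonotype had 637 reads in CD8, 3 in CD4 and 2 in the DN library. The TRBJ2-1 clonotype had 284, 3 and 1 reads and the TRBJ2-7 clonotype 257, 1 and 9 reads in the same order.

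The large TRBV17 clonotypes of DN T cells, in contrast, were all present in both other libraries. The largest, with TRBJ2-1, had 392 reads in DN, 43 in CD8 and 8 in CD4 T cells. It was also the 7th largest TRBV17 clonotype of the CD8 library, and no other was among the 10 largest TRBV17 clonotypes of more than 1 library. The TRBJ2-2 clonotype had 270, 29 and 5 reads in DN, CD8 and CD4, and the TRBJ2-7 clonotype 203, 27 and 6. All 10 of the largest DN clonotypes were found in CD8, with 15 to 43 reads, and the share of each in the CD8 library was 13.4 to 21.5% of its share in DN (median 16.8%). All 10 were found in CD4 with 1 to 8 reads, and their shares there were 3.11% of those in DN at the median. In the other direction, 7 of the 10 largest CD8 clonotypes were found in DN at a median of 1.31% of their CD8 share, and 5 in CD4. Of the 10 largest CD4 clonotypes, 8 were found in CD8 and 3 in the DN library. The largest clonotypes of other V genes were not looked up in this way, so the pattern is not shown to be particular to TRBV17. Over all sizes, clonotypes also found in CD8 held 62.4% of the DN reads of TRBV17 and 66.9% of those of the other V genes.

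**Figure D5:**
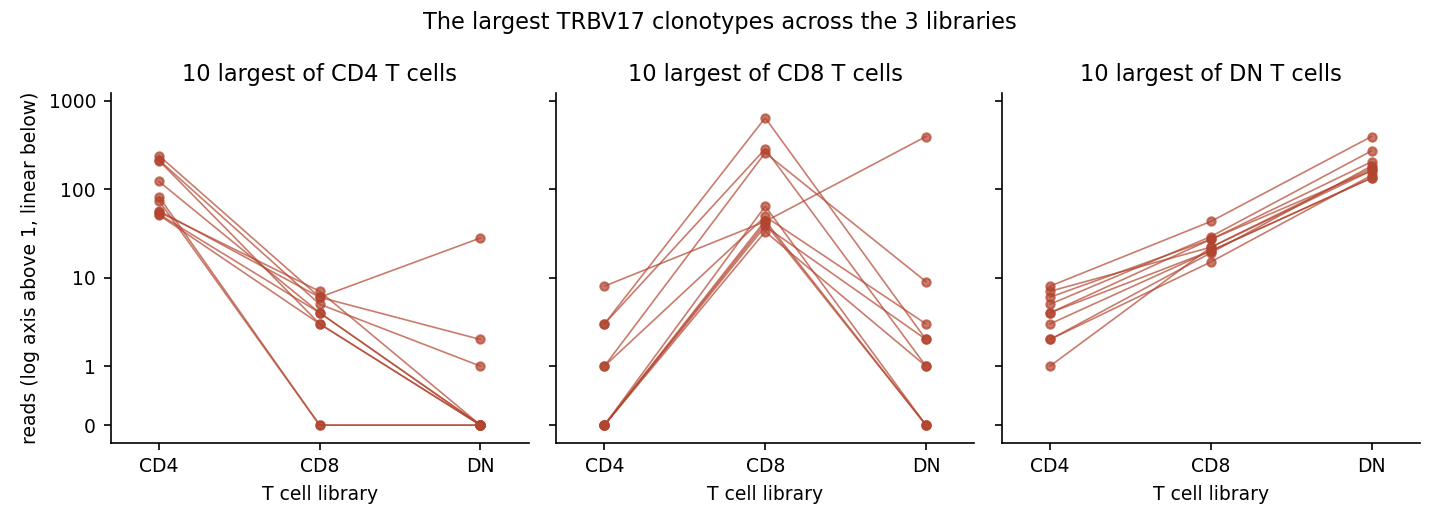
Reads in each library (log axis above 1 read, linear from 0 to 1) of the 10 largest TRBV17 clonotypes of CD4 (left), CD8 (middle) and DN T cells (right), each line 1 clonotype. The DN lines ran nearly parallel, from 1 to 8 reads in CD4 over 15 to 43 in CD8 to 133 to 392 in DN, while several of the largest CD4 and CD8 clonotypes had 0 reads in another library.

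Over all sizes, 616 TRBV17 clonotypes were found in CD8 and DN only, 100 in CD4 and DN only, 85 in CD4 and CD8 only and 144 in all 3 libraries. Those in all 3 were few and large, with 40.4% of the TRBV17 reads of DN, 20.8% of those of CD8 and 19.4% of those of CD4 T cells. For the other V genes these read shares were 46.5%, 14.8% and 15.1%. The 760 clonotypes common to DN and CD8 were 20.3% of the DN and 14.7% of the CD8 TRBV17 clonotypes, and they held 62.4% of the DN and 34.2% of the CD8 TRBV17 reads, against 66.9% and 23.9% of the reads of the other V genes. Clonotypes seen in 1 library only numbered 1109 in CD4, 4319 in CD8 and 2886 in the DN library. They were 77.1%, 83.6% and 77.0% of TRBV17 clonotypes, against 87.6%, 88.3% and 77.2% for the other V genes, so in DN T cells the values lay close together.

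In-frame TRBV17 clonotypes of CD4 were found in the other libraries more often than those of other V genes, with 16.7% against 8.95% found in CD8 (adjusted p = 1.94e-18, Fisher's exact test) and 17.7% against 8.38% found in DN T cells (2.29e-26). Of V genes, 77.8% and 72.2% passed these tests, and for the search in DN TRBV17 had the highest percent of 18 V genes. From CD8, 15.1% against 9.31% were found in DN T cells (adjusted p = 3.57e-35 by Fisher's exact test, with 76.2% of V genes passing), and 4.52% against 4.95% in CD4 (0.271, with 52.4% passing). From DN T cells, fewer TRBV17 clonotypes were found in CD4, 6.69% against 9.67% (adjusted p = 2.52e-08, Fisher's exact test), where 35.3% of V genes passed. In CD8, 21.1% against 19.4% of the DN clonotypes were found (adjusted p = 0.037 by Fisher's exact test, with 58.8% passing). This last difference was −0.97 percentage points among clonotypes of at least 2 reads (adjusted p = 0.699 by the same Fisher's exact test).

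These percentages depend on how many TRBV17 clonotypes the searched library held, and TRBV17 was a small part of CD4. Per 1000000 possible pairs of TRBV17 clonotypes, 39.3 were shared by DN and CD8, 45.3 by DN and CD4 and 30.8 by CD8 and CD4. Within the other V genes, the same rates were 25.4, 23.7 and 14.2. Of 14 V genes with at least 500 clonotypes in both libraries, TRBV17 had the 8th highest rate for DN and CD8, the 5th for DN and CD4 and the 2nd for CD8 and CD4. The median rates of these 14 genes were 39.98, 32.68 and 16.7 in the same order. TRBV17 thus lay slightly below the median for DN and CD8, where single genes ranged from 17.73 to 159.4. It lay above the median for DN and CD4 and for CD8 and CD4. These rates are descriptions without a test.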

How the data were processed

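The authors extracted mRNA from each sorted subset, prepared libraries with the Takara SMARTer mouse TCRα/β kit and assembled clonotypes with MiXCR. Its version, settings and read filters are not given in the sources used here. The authors' deposited tables list each clonotype's read count, not normalized, with its fraction of the table's reads. The counts deposited were used for all shares, and the fraction deposited by the authors was checked against them only. TRBV17 and the lists described here were chosen with earlier results of these data known.

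Shares were taken over clonotypes with TRB V and J genes (133667, 150874 and 194290 reads in the CD4, CD8 and DN libraries). A share of 0 allows up to 3 counts of the total. Each V gene with at least 50 clonotypes was compared with all others of its library by the two-sided Fisher's exact test on clonotypes, with Benjamini-Hochberg adjustment over V genes (over V and J pairs for pairing) and a threshold of 0.05. Common starts and ends were extended while at least 60% of the in-frame clonotypes that shared the part so far carried the next base. Clonotypes were named if they were among the 3 largest TRBV17 clonotypes of a library, the largest not in frame, or among the 10 largest of more than 1 library. J genes were named if they were the 2 most or least used, or if their pairing passed in all libraries, and V genes if they were neighbours of TRBV17 in the order or nearest to its pattern. A clonotype counted as shared if its CDR3 nucleotides and both genes were identical in another library. Scripts used Python 3.11.15, SciPy 1.17.1, NumPy 2.4.6 and pandas 2.3.3, and the tests were first tested on simulated data. Alternatives covered a minimum of 2 reads, merging of clonotypes 1 mismatch apart, the reading frame, the length cut, the largest and the shared clonotypes, amino acid CDR3s and the V genes compared with.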

Additional observations from a re-analysis of the deposited data

Results flagged for a closer look

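The difference in CDR3 length between TRBV17 and the other V genes had opposite signs in 2 libraries. CDR3s of more than 14 residues were 6.02 percentage points rarer among TRBV17 clonotypes than among the others in DN T cells (a difference of −6.02) and 1.83 points more frequent in CD8 T cells, each past the threshold within its library. The difference between the libraries was not tested, since each subset had 1 library.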

How the results depend on the processing

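Of 120 alternative values for the main results, 99 were unchanged, which meant the sign and the test outcome for a difference, a value within the counting interval for a ratio, and a count within 1.5 times the reported one for J pairing. The unchanged values include tests that passed in neither setting. They also include the read ratios after merging of clonotypes 1 mismatch apart, which could not change because merging kept all reads within their V gene. A further 75 values covered the 5 J genes that passed in every library. Of these 75, 56 were unchanged, 11 no longer passed, 7 moved and 1 changed sign. The alternatives that set V genes of at least 0.5% of reads, all but TRBV13-1, TRBJ2 clonotypes alone, clonotypes without near copies or, outside the read ratios and CDR3 length, private clonotypes were chosen after seeing the data. The DN over CD8 read ratio was 1.04 with at least 2 reads per clonotype, 1.15 without the largest TRBV17 clonotype, 1.40 by clonotypes and 1.46 without shared clonotypes. The DN over CD4 ratio was 2.03 with at least 2 reads, 2.44 without the 10 largest, 2.78 by clonotypes and 2.83 without shared clonotypes. The CD8 over CD4 ratio was 2.16 without the 10 largest and 1.98 by clonotypes. All ratios stayed above 1. The difference of TRBV17 from the other V genes in clonotypes without a D gene in CD8 T cells turned to 0.93 percentage points with at least 2 reads and to 1.15 among TRBJ2 clonotypes, without passing. For DN clonotypes found in CD8 it was −0.97 points with at least 2 reads and 1.34 by amino acid CDR3 (not past the threshold), and for CD8 clonotypes found in CD4 it was −1.14 by amino acid CDR3 and passed. The length difference in CD8 was 0.65 points at the higher cut, and the in-frame difference in CD4 was 1.28 points against the common V genes and 1.65 among private clonotypes, all no longer past the threshold. The J genes that passed with TRBV17 fell from 8 to 2 in CD4, from 11 to 8 in CD8 and from 8 to 5 in DN T cells with at least 2 reads, and among private clonotypes to 5 in CD4 and 6 in DN T cells. No share over all pairs is given for these settings. TRBJ1-6 in CD4 turned to 3.82 points above the other V genes by reads. The cause of these shifts was not tested, except that the alternatives with fewer clonotypes also had fewer to test. With 1 library per subset there is no replicate error, and no paired analysis was possible because no subset had a second sample.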

Other observations

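Some in-frame TRBV17 CDR3s were coded by more than 1 nucleotide sequence with the same J gene. These were 3.36% of the distinct amino acid CDR3s in CD4, 6.40% in CD8 and 4.55% in the DN library, against 5.35%, 6.84% and 5.15% for the other V genes. The most nucleotide sequences for 1 TRBV17 CDR3 were 4 in CD4, 8 in CD8 and 10 in the DN library. In the DN library 19 of the 146 TRBV17 clonotypes not in frame lay 1 inserted or deleted base from a larger in-frame clonotype, against 4 of 79 in CD4 and 2 of 136 in CD8 T cells. These were 13.01%, 5.06% and 1.47%, and the other V genes stood at 7.80%, 4.70% and 2.32% in the same order. Arginine at position 5 of the TRBV17 CDR3 was coded by AGA, the codon of the common start, in 76.0% of such clonotypes in CD4, 76.6% in CD8 and 78.2% in the DN library.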
